A study of Mus musculus with 2 samples.

Results

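WNT ligands, their frizzled and LRP receptors, the secreted proteins that block them and the core of the β-catenin branch were read on 2 two-colour gene expression arrays of mouse keratinocytes, the cells that build the epidermis. The members are the genes whose name in the array files starts with Wnt, Fzd, Dkk or Sfrp followed by a digit, together with Wif1, Frzb, Lrp5, Lrp6, Axin1, Axin2, Lef1, Tcf7, Ctnnb1, Apc, Porcn, Kremen1 and Kremen2. This gave 50 genes with 73 probes, out of 21339 named genes and 41174 probes on the array. Of these 50 genes, 41 had a probe bright enough to be tested, as did 13741 genes in all.

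On both arrays the Cy3 channel carried total RNA of wild-type keratinocytes and the Cy5 channel total RNA of keratinocytes that the labels call CHUK-LoxP mutant and describe as deleted for Chuk. Chuk encodes IKKα, a subunit of the IκB kinase that keratinocytes need in order to mature. LoxP sites are the short sequences between which Cre recombinase removes DNA. The Cre driver, the strain, the age of the animals, the culture conditions and the number of animals are not given in the sources used here. The labels name no dye swap, so at each probe dye and genotype cannot be told apart. The arrays are numbered as replicates 1 and 2, and the labels do not state whether each had cells of its own culture or animal. A p-value here therefore reflects how far 2 arrays differ, at the probe and pooled over all tested probes, and no more. That spread may be technical.

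Chuk was itself higher in the channel labelled mutant. One of its probes gave log2 ratios of Cy5 over Cy3 of 0.73 on array 1 and 0.75 on array 2 (mean 0.74 ± 0.016, SD, n = 2, a 1.67-fold higher signal, limma adjusted p = 0.000101), a direction that turned to -0.021 when the arrays were lowered by their spike-in controls. The other probe gave 0.93 and 0.78 (0.85 ± 0.11). Both go against the label, and whether either probe lies in the removed part of the gene is not known here. Every direction below is therefore that of the channel labelled mutant over the channel labelled wild type.

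WNT proteins are secreted lipid-modified signals. They bind frizzled receptors together with the co-receptors Lrp5 or Lrp6, which stops a complex of Axin, Apc and kinases from destroying β-catenin, so that β-catenin can enter the nucleus and act with TCF/LEF factors on target genes. In skin this branch is known for starting hair follicles and for maintaining stem cells of the follicle and the basal epidermis, while other WNTs act without β-catenin on cell polarity and movement.

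More WNT members were higher than lower in the mutant channel. Of the 41 tested members, 19 rose (46.3%) and 11 fell (26.8%) by the limma fit (Benjamini-Hochberg over the whole table, threshold 0.05). Of all tested genes, 33% rose and 28.3% fell under the same rule, so the share of members that fell was near the background. A count that makes no use of the spread, at least 2-fold on both arrays, found 4 members higher (Wnt3a, Dkk3, Wnt2 and Wnt6, 9.76%) and 0 lower, beside 1.5% of all genes higher and 3.21% lower. The median log2 ratio over the tested members was 0.11, with 0.15 on array 1 and 0.12 on array 2, and that over all tested genes was 0.021. The median SD between the arrays was 0.060 for members and 0.056 for all genes. The sign was positive on both arrays in 24 members, negative on both in 15 and differed between the arrays in 2, the co-receptors Lrp6 and Kremen1.

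These counts depend on where 0 is set. Centring each array on its median without loess moved the median of all genes by 0.53 and gave 32 members higher and 3 lower. Lowering each array by its mean spike-in ratio moved the median of all genes by -0.76 and gave 5 higher and 31 lower. The values that follow are relative to the loess fit, under which the median gene lies near 0, and a member whose direction turned under another scaling is marked where it is described. Of the members that changed, Wnt3a, Wnt2, Wnt3, Wnt6, Dkk3, Wnt7b, Wnt16 and Fzd9 kept their direction in each setting that measured them, and their call in each that tested them.

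**Figure D1:**
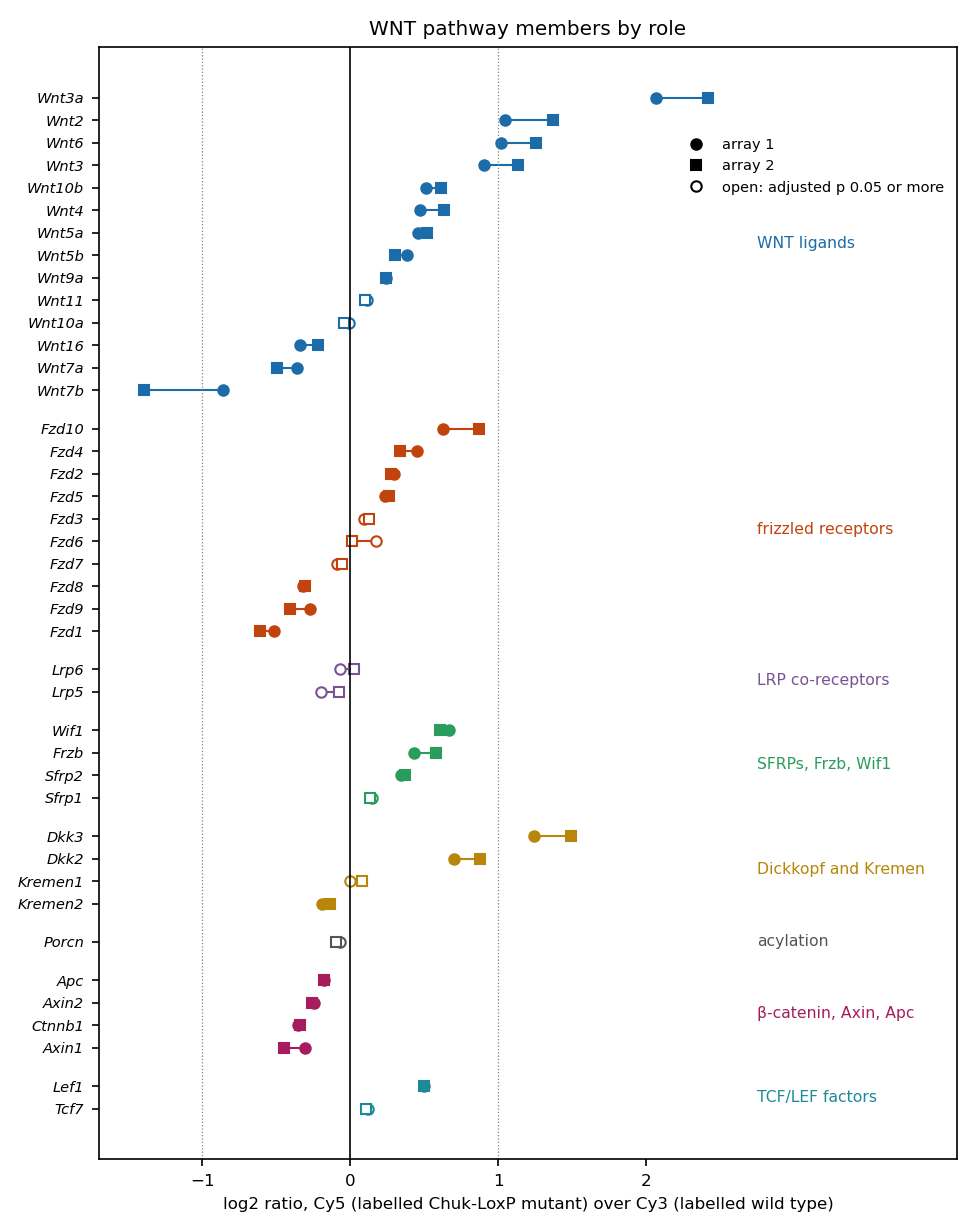
Each tested member is a line on the y axis, grouped by role, and the x axis is the log2 ratio of Cy5 (labelled mutant) over Cy3 (labelled wild type) on array 1 (circle) and array 2 (square); open symbols mark an adjusted p of 0.05 or more. Wnt3a lies furthest right at 2.07 and 2.42 and Wnt7b furthest left at -0.86 and -1.40. Ctnnb1 and Apc each had another probe called higher, that of Apc with Cy3 not well above background. At their brightest probes the 4 members of the β-catenin, Axin and Apc group all lie below 0. These 4 lay above 0 with median centring alone, and the spike-in scaling, which lowers every gene here, could not raise them.

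The ligands differed most among themselves. Of 19 WNT ligands, 14 were tested, of which 9 rose, 3 fell and 2 did not pass, with a median of 0.41 and a range from -1.13 to 2.24. Of all tested genes, 33% rose and 28.3% fell under the same rule. The 5 other ligands, Wnt1, Wnt2b, Wnt8a, Wnt8b and Wnt9b, were not well above background in either channel on either array.

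Wnt3a, a ligand that acts through β-catenin, showed the largest change of any member. Its processed intensity, the scanner software's background-subtracted and dye-normalised brightness, went from 252 in Cy3 to 1280 in Cy5 on array 1, and from 184 to 1420 on array 2. Both mutant values lay far above both wild-type values. Its log2 ratios, 2.07 and 2.42, gave a mean of 2.24 ± 0.25 (SD, n = 2), a 4.73-fold rise (limma adjusted p = 2.46e-05).

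Wnt3, a close relative of Wnt3a that also acts through β-catenin, was read by a pair of probes that moved alike. The brighter probe went from 560 to 1090 on array 1 and from 513 to 1250 on array 2, so the channels did not overlap. Its mean log2 ratio was 1.02 ± 0.17, a 2.03-fold rise (limma adjusted p = 9.66e-05), and the dimmer probe gave 0.94 ± 0.037. Wnt3 was at least 2-fold higher on array 2 only, where its log2 ratio was 1.14 against 0.90 on array 1.

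Wnt6, a ligand made in skin epithelium, was also read by a pair of probes. Its brighter probe went from 351 to 772 on array 1 and from 226 to 677 on array 2, with log2 ratios of 1.02 and 1.25 (mean 1.14 ± 0.17, a 2.2-fold rise, limma adjusted p = 7.09e-05). The other probe gave 0.92 ± 0.22. Each probe was brighter in the mutant channel on both arrays.

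Wnt2 was dim. Its processed intensity went from 48.9 in Cy3 to 179 in Cy5 on array 1, and from 39.5 to 276 on array 2, with the Cy3 spot well above background on 1 array only. The log2 ratios were 1.05 and 1.37 (mean 1.21 ± 0.23, a 2.31-fold rise, limma adjusted p = 9.7e-05). The scanner software's own ratio for Wnt2 was 2.34 on the log2 scale.

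Wnt10b, a ligand known for its part in the hair follicle placode, was dim as well, at 50.6 and 102 on array 1 and 44.8 and 127 on array 2. Its Cy3 spot was well above background on 1 array. The log2 ratios of 0.51 and 0.61 gave 0.56 ± 0.072 (limma adjusted p = 0.000325), a direction that turned with the spike-in scaling (-0.20), and the software's ratio was 1.26.

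Wnt4 rose from 702 to 988 on array 1 and from 871 to 1400 on array 2, so that the mutant value of each array was above both wild-type values. This ligand is known mostly from kidney and gonad development and is also made in epidermis. Its mean was 0.55 ± 0.11 (limma adjusted p = 0.000498), again turning to -0.21 with the spike-in scaling.

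Wnt5a, the best known ligand of the branch that works without β-catenin, went from 570 to 794 and from 554 to 839, with log2 ratios of 0.46 and 0.52 (mean 0.49 ± 0.042, limma adjusted p = 0.000463) and -0.27 with the spike-in scaling. Wnt9a rose by 0.24 on both arrays and turned to -0.52 with that scaling. Wnt5b had probes with opposite calls and is described with the probe comparison.

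Wnt7b was the member that fell most. This ligand is made by epithelia, epidermis among them. Its processed intensity went from 1790 to 948 on array 1 and from 1460 to 502 on array 2, and both mutant values were below both wild-type values. The log2 ratios of -0.86 and -1.40 gave -1.13 ± 0.38, a signal 2.18-fold lower (limma adjusted p = 0.00044). The fall passed 2-fold on array 2 only, and no other tested member had as large an SD between the arrays.

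Wnt7a, its closest relative, fell from 1080 to 806 and from 1340 to 905, with log2 ratios of -0.36 and -0.50 (mean -0.43 ± 0.096, limma adjusted p = 0.00112), a direction that turned to 0.14 with median centring alone. Wnt16 was dim, from 59.9 to 32.1 on array 1 and from 58.9 to 19 on array 2, with the Cy5 spot well above background on 1 array. Its mean was -0.28 ± 0.084 (limma adjusted p = 0.00579), and the software's ratio was -1.27. Wnt10a, the ligand whose loss is known to affect teeth, hair and palms, was nearly equal in both channels, at 23900 and 24100 on array 1 and 23800 and 23400 on array 2, with a mean of -0.024 ± 0.025. Wnt11 stood at 0.11 ± 0.0094, and neither passed the test.

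Several WNT genes lie side by side in the mouse genome. By the order of genes in the RefSeq table, Wnt6 and Wnt10a follow each other with 0 protein-coding genes between them, as do Wnt3a and Wnt9a. Wnt6 rose by 1.14 while Wnt10a stood at -0.024. Wnt3a rose by 2.24 and Wnt9a by 0.24, the latter turning below 0 with the spike-in scaling. Of the other neighbours, Wnt3 rose beside Wnt9b and Wnt10b beside Wnt1, where Wnt9b and Wnt1 were not well above background.

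**Figure D2:**
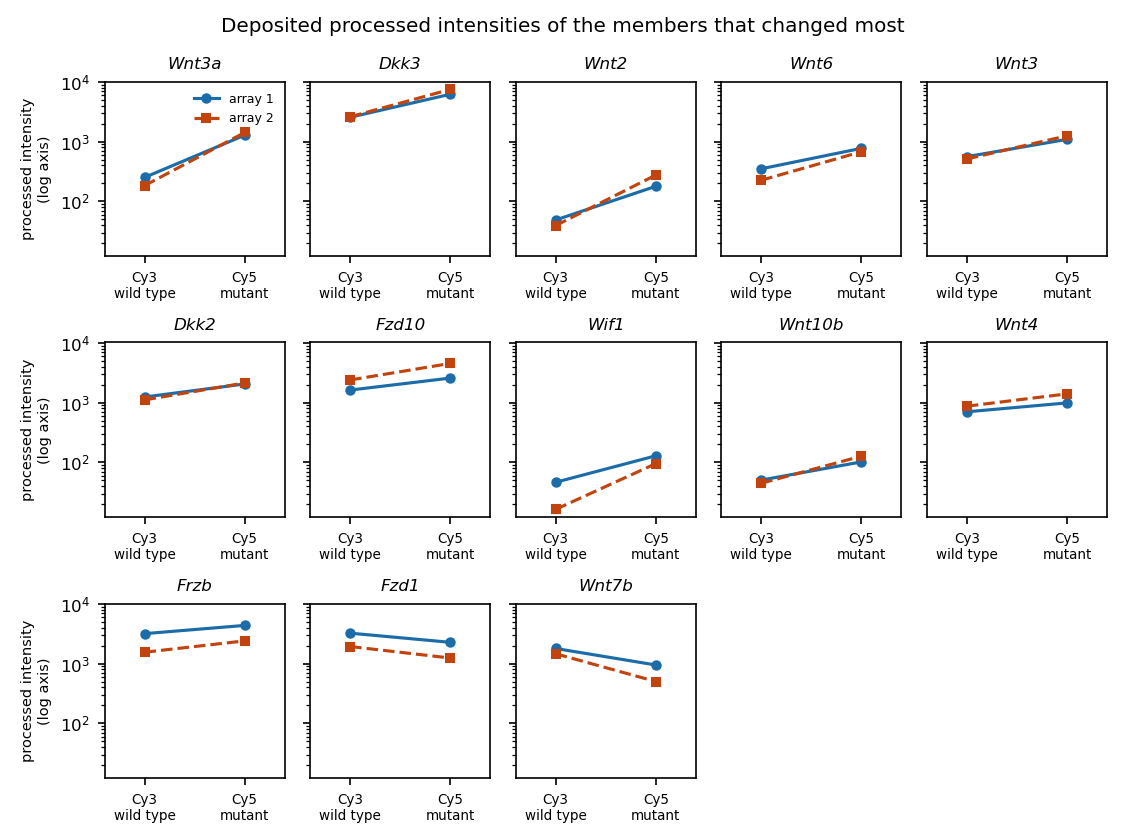
Each panel is a member that passed the test with a mean log2 ratio of at least 0.5 in size, with the deposited processed intensity on a log axis in the Cy3 channel (labelled wild type) and the Cy5 channel (labelled mutant) of array 1 (solid) and array 2 (dashed). Lines slope up in all panels but Fzd1 and Wnt7b and are steepest for Wnt3a, Wnt2 and Wif1; with the spike-in scaling the ratios of Fzd10, Wif1, Wnt10b, Wnt4 and Frzb lay below 0, and with median centring alone that of Fzd1 lay above 0.

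Promoter windows of 250 bases before the start were held for 32 of the 50 members (40 windows, RefSeq, GRCm38.p6). The windows shown are those of Wnt3a and Wnt3, ligands that rose without either motif searched, of Lef1, which rose and holds a TCF/LEF motif, and of Wnt10b, which rose and holds NF-kappaB motifs. Each is 5′ to 3′ on the strand of the gene, with motif matches in capitals. Wnt3a lies on the minus strand at chr11:59290752-59291001 (87.6% G and C), Wnt3 on the plus strand at chr11:103773925-103774174 (68% G and C), Lef1 on the plus strand at chr3:131156044-131156293 (44.8%, 1 of the 4 windows of this gene) and Wnt10b on the minus strand at chr15:98778151-98778400 (66.8%).
Wnt3a: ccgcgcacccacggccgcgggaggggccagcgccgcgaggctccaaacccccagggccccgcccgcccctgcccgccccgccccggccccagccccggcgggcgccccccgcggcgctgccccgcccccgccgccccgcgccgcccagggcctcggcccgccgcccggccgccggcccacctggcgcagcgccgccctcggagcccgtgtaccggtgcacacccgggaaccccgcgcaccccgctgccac
Wnt3: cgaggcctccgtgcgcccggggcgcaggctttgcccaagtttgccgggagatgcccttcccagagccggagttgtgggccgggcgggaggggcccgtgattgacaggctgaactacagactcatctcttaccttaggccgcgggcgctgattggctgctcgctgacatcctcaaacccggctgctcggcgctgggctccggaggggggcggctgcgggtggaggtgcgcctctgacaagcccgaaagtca
Lef1: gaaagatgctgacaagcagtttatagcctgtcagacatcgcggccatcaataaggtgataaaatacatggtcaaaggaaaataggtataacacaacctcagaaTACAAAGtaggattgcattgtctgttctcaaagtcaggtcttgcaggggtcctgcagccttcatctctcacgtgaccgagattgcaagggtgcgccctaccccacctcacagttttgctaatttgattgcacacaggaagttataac
Wnt10b: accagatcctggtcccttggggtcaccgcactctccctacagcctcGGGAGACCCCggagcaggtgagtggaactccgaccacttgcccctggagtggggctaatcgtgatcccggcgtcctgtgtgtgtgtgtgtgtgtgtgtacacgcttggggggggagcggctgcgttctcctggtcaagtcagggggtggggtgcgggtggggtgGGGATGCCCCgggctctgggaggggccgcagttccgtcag

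The TCF/LEF motif was searched on both strands in its 4 spellings, which were CTTTGAA with CTTTGAT and CTTTGTA with CTTTGTT, and the NF-kappaB motif by its decamer consensus on both strands. A TCF/LEF motif was present in 5 of the 40 member windows (12.5%) and in 14.8% of all 32851 windows. These were windows of Lef1, Wnt5b, Wnt11, Fzd7 and Dkk1. At their brightest probes Lef1 and Wnt5b rose and Wnt11 and Fzd7 did not pass, while Dkk1 was not tested. In Lef1 the match lies from -147 to -141 relative to the start on the minus strand. An NF-kappaB motif was present in 2 member windows (5%), those of Wnt10b and Kremen2, and in 3.9% of all windows. In Wnt10b, which rose, the matches lie at -204 to -195 and at -40 to -31. In Kremen2, which fell, they lie at -242 to -233, at -241 to -232 and at -173 to -164. A match is a string of letters and shows no binding.

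The frizzled receptors are the membrane proteins that WNTs bind. All 10 were tested, of which 4 rose, 3 fell and 3 did not pass, with a median of 0.10 and a range from -0.56 to 0.75. These counts are near the 33% and 28.3% of all tested genes that rose and fell. None was 2-fold apart on both arrays.

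Fzd10 rose most among the receptors. Its brighter probe went from 1620 to 2570 on array 1 and from 2390 to 4520 on array 2, and array 2 was the brighter in both channels. The log2 ratios of 0.62 and 0.87 gave 0.75 ± 0.17 (limma adjusted p = 0.00029), and the second probe gave 0.94 ± 0.18, while the spike-in scaling put the brighter probe at -0.012.

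Fzd4 (0.39 ± 0.077, limma adjusted p = 0.00135) and Fzd2 (0.28 ± 0.011, adjusted p = 0.00367) rose by less and turned to -0.37 and -0.47 with the spike-in scaling. Fzd4 is known as the receptor for norrin in vessels. The arrays gave 0.45 and 0.34 for Fzd4 and 0.29 and 0.28 for Fzd2, whose dimmer probe, at 0.048 ± 0.086, did not pass. With the median over both probes Fzd2 stood at 0.17 (limma adjusted p = 0.0313). The software's ratio for Fzd4 was 0.60.

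Fzd1 fell most, from 3230 to 2270 on array 1 and from 1930 to 1240 on array 2. Array 1 was brighter in both channels, so the fall is seen within each array and the ranges of the channels overlap between arrays. On the log2 scale this was -0.52 and -0.61, or -0.56 ± 0.065 (limma adjusted p = 0.000302), and median centring alone turned it to 0.064. Fzd9 gave -0.27 and -0.41 (mean -0.34 ± 0.094, limma adjusted p = 0.00287). Fzd8 gave -0.32 and -0.30 (mean -0.31 ± 0.012, limma adjusted p = 0.00251) and lost its call with median centring alone. In the software's ratio Fzd9 and Fzd8 were at -0.68 and -0.62. Fzd3, Fzd6 and Fzd7 lay between -0.071 and 0.11 at their brightest probes and did not pass, while the other Fzd7 probe gave 0.15 ± 0.018 and was called higher (limma adjusted p = 0.0412).

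The co-receptors Lrp5 and Lrp6, which bind WNT together with a frizzled, did not pass. Lrp5 gave log2 ratios of -0.20 and -0.08, with a mean of -0.14 ± 0.086 (limma adjusted p = 0.0749), and lay above 0 with median centring. Lrp6 stood at -0.023 ± 0.070 with signs that differed between the arrays. Porcn, the enzyme that attaches the lipid WNTs need to be secreted, stood at -0.084 ± 0.020 (limma adjusted p = 0.202), also above 0 with median centring. With the spike-in scaling Lrp5 stood at -0.90 and Porcn at -0.84.

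Secreted antagonists that bind WNT itself were higher where they changed. Of the 6 genes (Sfrp1, Sfrp2, Sfrp4, Sfrp5, Frzb and Wif1), 4 were tested, of which 3 rose and Sfrp1 did not pass, with a median of 0.43. Of all tested genes, 33% rose and 28.3% fell. All 3 antagonists that rose turned below 0 with the spike-in scaling.

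Frzb, a secreted frizzled-related protein first known from cartilage, went from 3170 to 4350 on array 1 and from 1550 to 2400 on array 2. Array 1 was brighter in both channels, and the mutant channel was higher within each array. Its log2 ratios, 0.43 and 0.58, gave 0.51 ± 0.11 (limma adjusted p = 0.000663), or -0.25 with the spike-in scaling.

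Wif1, the WNT inhibitory factor, was dim, at 46.6 and 129 on array 1 and at 16.4 and 95.5 on array 2, with Cy3 well above background on 1 array. Its mean was 0.64 ± 0.047 (limma adjusted p = 0.000179), while the software's ratio was 2.01, the spike-in scaling gave -0.12 and centring on the median followed by a shift to the loess median left 0.18 without a call (limma adjusted p = 0.0735). Sfrp2 gave 0.35 and 0.37 (mean 0.36 ± 0.017, limma adjusted p = 0.00146), or -0.40 with the spike-in scaling. Sfrp1, with 0.15 and 0.13 (mean 0.14 ± 0.012, limma adjusted p = 0.0528), lay just outside the threshold. Sfrp4 and Sfrp5 were not well above background.

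Dickkopf proteins bind Lrp5 and Lrp6, with Kremen proteins as their partners, except Dkk3, whose action on the LRP receptors is disputed. Of these 6 genes 4 were tested, and 2 rose and 1 fell, beside 33% of all tested genes that rose and 28.3% that fell. Dkk3 went from 2550 to 6190 on array 1 and from 2600 to 7450 on array 2. Both mutant values exceeded both wild-type values, with log2 ratios of 1.24 and 1.49 (mean 1.36 ± 0.18, a 2.57-fold rise, limma adjusted p = 4.82e-05).

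Dkk2 went from 1240 to 2050 and from 1110 to 2130, again without overlap. Its log2 ratios of 0.70 and 0.88 gave 0.79 ± 0.12 (a 1.73-fold rise, limma adjusted p = 0.000149), and it lost its call with the spike-in scaling, at 0.032. Kremen2 was dim, from 34.1 to 20.4 on array 1 and from 50.9 to 38.4 on array 2. Kremen2 gave -0.19 and -0.14 (mean -0.16 ± 0.036, limma adjusted p = 0.034). It lost its call with median centring alone and without the filter on dim probes, and had a software ratio of -0.58. Kremen1 stood at 0.037 ± 0.059 without passing. Dkk4 was not well above background, and Dkk1, the best known of the family and itself a WNT target, was above background on 1 array only.

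The intracellular members are β-catenin itself and proteins that hold it. Ctnnb1, Axin1, Axin2 and Apc all fell at their brightest probes, with a median of -0.30 and a range from -0.38 to -0.18, beside 28.3% of all tested genes that fell. Ctnnb1 and Apc each also had a probe called higher, that of Apc with Cy3 not well above background on either array. With median centring alone all 4 lay above 0, though below the median of all tested genes in that setting, 0.55. Their direction therefore depends on where 0 is set.

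Ctnnb1, the gene of β-catenin, went from 11800 to 9410 on array 1 and from 9520 to 7540 on array 2. The fall is seen within each array, and the wild-type value of array 2 was close to the mutant value of array 1. The brightest probe gave -0.36 and -0.34 (mean -0.35 ± 0.012, limma adjusted p = 0.00162), and with median centring shifted to the loess median it lost its call (-0.16, limma adjusted p = 0.0813). Axin1, the scaffold of the destruction complex, gave -0.31 and -0.45 (mean -0.38 ± 0.099, limma adjusted p = 0.00199).

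Axin2, a scaffold that is also a widely used readout of β-catenin activity because its gene is a WNT target, went from 149 to 109 and from 144 to 102. Both mutant values were below both wild-type values, with log2 ratios of -0.24 and -0.26 (mean -0.25 ± 0.012, limma adjusted p = 0.00619) and 0.0016 with median centring alone. The software's ratio for Axin2 was -0.48. Apc, the tumour suppressor that presents β-catenin for destruction, gave -0.18 on both arrays (limma adjusted p = 0.0227) and lost its call in the software's ratio (-0.20, adjusted p = 0.071) and with shifted median centring (-0.15, adjusted p = 0.098). The median over its probes was 0.090 (limma adjusted p = 0.145).

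Among the nuclear partners, Lef1, a TCF/LEF factor and a marker of hair follicle precursors, went from 1140 to 1620 on array 1 and from 945 to 1380 on array 2. Both mutant values lay above both wild-type values. Its ratio was 0.50 on both arrays on the log2 scale, or 0.50 ± 0.0031 (a 1.41-fold rise, limma adjusted p = 0.000385), the other tested probe gave 0.66 ± 0.12, and the spike-in scaling turned the brighter probe to -0.26. Tcf7, which encodes TCF1, stood at 0.11 ± 0.011 without passing (limma adjusted p = 0.0992).

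Probes of 1 gene did not always move alike. Of 13 members with several tested probes, 4 (30.8%) had probes called in opposite directions, and of all 5526 such genes 542 did (9.81%). The 4 were Wnt5b, Fzd5, Ctnnb1 and Apc. Wnt5b, a ligand of the β-catenin-independent branch, gave 0.34 ± 0.060 (limma adjusted p = 0.00215) at its brighter probe and -0.21 ± 0.16 (limma adjusted p = 0.0334) at the dimmer one. At that dimmer probe the Cy5 spot was well above background on 1 array only. Fzd5 gave 0.25 ± 0.017 and -0.15 ± 0.028. With the median over their probes neither passed, at 0.064 for Wnt5b and 0.050 for Fzd5, and both turned below 0 with the spike-in scaling.

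For Ctnnb1 the second probe gave -0.52 ± 0.23 and the third 0.25 ± 0.14 (limma adjusted p = 0.0153). Of 5 tested Apc probes, 1 fell, 1 rose (0.30 ± 0.014) and 3 did not pass. Which transcript form each probe reads is not known here, since probe sequences were not used. For Wnt3, Wnt6, Fzd10 and Lef1 both tested probes rose. A pair of probes that later annotation assigns to Lrp6 and Fzd3, but whose names in the files do not meet the rule, gave -0.093 and -0.10 and did not pass.

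**Figure D3:**
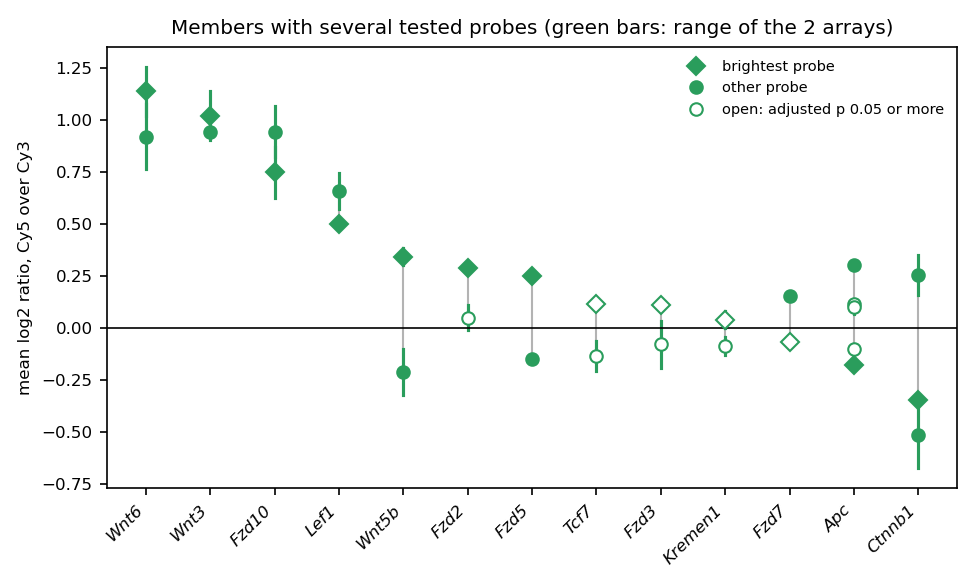
For each member with several tested probes (x axis), the y axis gives the mean log2 ratio of each probe over the 2 arrays, with a bar for the range of the arrays; the diamond is the brightest probe and open symbols have an adjusted p of 0.05 or more. The probes of Wnt6, Wnt3, Fzd10 and Lef1 lie together above 0 (Fzd10 and Lef1 fell below 0 with the spike-in scaling), and those of Wnt5b, Fzd5, Apc and Ctnnb1 lie on both sides of it.

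Other genes of the pathway were read from 5 lists, whose counts stand beside 33% of all tested genes higher and 28.3% lower. Among genes for WNT release, R-spondins and their receptors, 11 of 17 were tested, of which 7 rose and 3 fell, with a median of 0.32. Gpc3, a cell surface glypican that binds WNTs, gave 1.35 and 1.72 (mean 1.53 ± 0.26, limma adjusted p = 6.21e-05) and kept its call in each setting that had a test. Its relative Gpc4 (0.74 ± 0.18), the R-spondin Rspo4 (0.62 ± 0.019) and the secreted Igfbp4 (0.39 ± 0.025) rose too, and these 3 turned below 0 with the spike-in scaling. Igfbp4 also lost its call with shifted median centring (0.13, limma adjusted p = 0.157).

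Among kinases, Dishevelled and other proteins around the destruction complex, 23 of 25 genes were tested, of which 5 rose and 7 fell, with a median of -0.11. Frat2, which binds GSK3, fell by 0.76 ± 0.14 and kept its call in each setting that had a test. Ppp2ca, a catalytic subunit of protein phosphatase PP2A (-0.63 ± 0.11), and Csnk2a1, a casein kinase subunit (-0.40 ± 0.0096), fell as well, both turning above 0 with median centring alone. With the median over the probes of a gene, Csnk2a1 no longer passed (-0.11, limma adjusted p = 0.101). Nkd1, a feedback inhibitor that binds Dishevelled, rose by 0.47 ± 0.089 and turned to -0.29 with the spike-in scaling.

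Among TCF relatives and cofactors, 19 of 21 genes were tested, of which 7 rose and 3 fell, with a median of 0.080. Smarca4, the BRG1 remodelling ATPase (0.81 ± 0.17), and Bcl9, a β-catenin adaptor (0.79 ± 0.057), rose, and both lost their call with the spike-in scaling. Tcf7l2 rose by 0.45 ± 0.087, or stood at -0.30 with that scaling. Tle1, a Groucho corepressor, fell by 0.64 ± 0.051 and lost its call with median centring alone. With the median over the probes of a gene, Smarca4 (0.12) and Tle1 (-0.095) no longer passed.

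Among genes of the β-catenin-independent and planar polarity branch, 26 of 28 were tested, of which 13 rose and 5 fell, with a median of 0.16. Celsr1, a polarity cadherin of the epidermis, gave 0.98 and 1.26 (mean 1.12 ± 0.20, limma adjusted p = 9.5e-05) and kept its call in each setting that had a test. Ankrd6 (0.77 ± 0.034) lost its call with the spike-in scaling, and Mapk8, the kinase JNK1 (0.74 ± 0.046), turned to -0.020. Prickle1, another core polarity gene, fell by 0.69 ± 0.011 and lost its call with median centring alone. The median over probes gave smaller values for Ankrd6 (0.44), Mapk8 (0.33) and Prickle1 (-0.23).

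Of 29 genes known as WNT targets in other tissues, 24 were tested, of which 10 rose and 7 fell, with a median of 0.078, and the share that fell was near that of all genes. Sox9, a follicle stem cell factor, gave -1.27 on both arrays (limma adjusted p = 2.7e-05), and Id2, an inhibitor of helix-loop-helix factors, gave -1.13 and -1.23 (mean -1.18 ± 0.070). Ccn4, the matricellular protein WISP1, gave 1.05 and 1.18 (mean 1.12 ± 0.091). These 3 kept their call in each setting that had a test. Ephb2, an ephrin receptor, rose by 0.68 ± 0.13 and turned to -0.075 with the spike-in scaling. With the median over probes Sox9 stood at -0.74 and Ephb2 at 0.35.

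**Figure D4:**
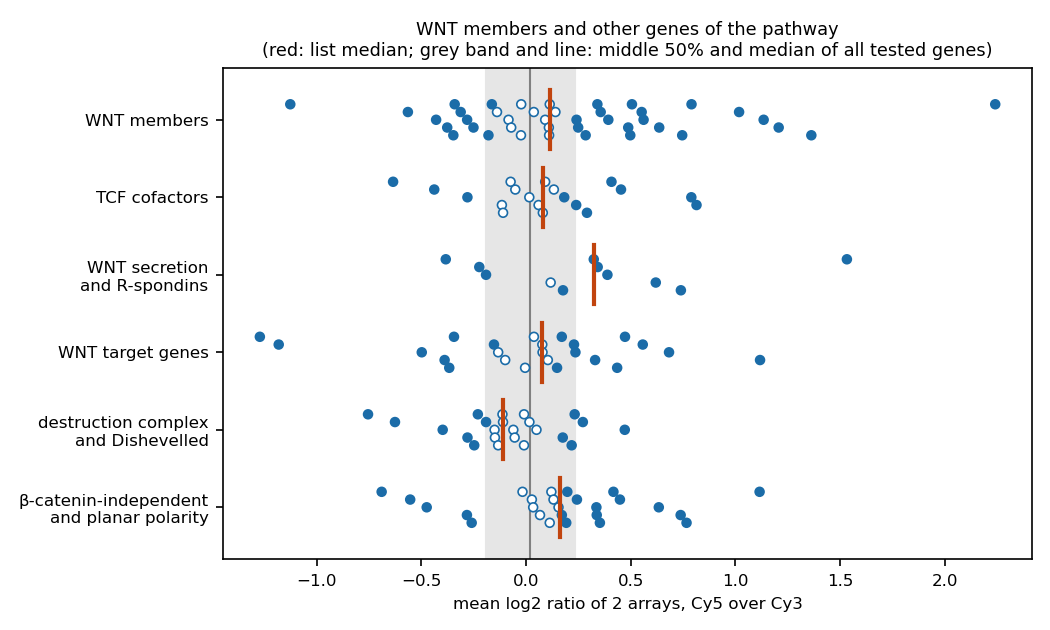
Each point is a tested gene, with its mean log2 ratio over the 2 arrays on the x axis and its list on the y axis; filled points have an adjusted p under 0.05, red bars are list medians, and the grey line and band are the median (0.021) and middle 50% of all tested genes. List medians run from -0.11 for the destruction complex to 0.32 for WNT release and R-spondins, and the members span -1.13 to 2.24, with Sox9 of the target genes lower still at -1.27; the medians move with the centring of the arrays.

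Markers of the labelled cell type and of other skin cells were read beside these results. Their counts stand beside 33% of all tested genes higher and 28.3% lower. All 15 keratinocyte markers were well above background in Cy3 on both arrays and 14 in Cy5, the exception being Krt1. Of these 15, 6 rose and 9 fell (median -0.29), from Lor at -2.82 ± 0.89 to Itgb4 at 1.57 ± 0.39. Their summed processed intensity was 863000 to 949000 in Cy3 and 1130000 to 1160000 in Cy5. Of 18 markers of dermal fibroblasts and dermal papilla, which also make WNTs, SFRPs and Dickkopfs, 17 were tested, 11 rose and 3 fell (median 0.29), and their summed processed intensity was 139000 to 176000 in Cy3 and 231000 to 261000 in Cy5. Col1a2 stood at 1.02 ± 0.19, Col1a1 at 0.84 ± 0.073 and Col3a1 at 0.62 ± 0.058, while Dcn stood at -0.60 ± 0.032 and Corin was not well above background. Dkk3, Dkk2, Wnt2, Frzb and Sfrp2 rose beside a list that went both ways, and the part of these cells in the result was not tested. In RNA of mixed cells, fewer cells of a type and less RNA per cell cannot be told apart.

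Melanocyte markers were lower, with 8 of 9 tested genes lower, a median of -0.86 and a summed processed intensity of 47900 to 53300 in Cy3 and 17400 to 22900 in Cy5, with Tyr not well above background. Of 16 hair follicle markers, 4 of which (Sox9, Msx2, Nfatc1 and Lgr5) are also in the pathway lists, 8 were tested, 4 rose and 3 fell, with a median of 0.032. Their sums were 25600 to 26200 in Cy3 and 13900 to 14000 in Cy5, and the brightest tested genes of this list were among those that fell, Sox9 (-1.27) and Cd34 (-0.64). Immune markers had 8 of 14 tested, 2 higher and 4 lower, with sums of 4380 to 4730 in Cy3 and 3110 to 3450 in Cy5 and with Ptprc, Cd207 and Cd3g not well above background. Endothelial markers had 3 of 9 tested, 1 higher and 2 lower, with sums of 13100 to 14100 in Cy3 and 4140 to 4560 in Cy5 and with Pecam1 not well above background. Beside these marker counts, 33% of all tested genes rose and 28.3% fell. The part of melanocytes and of follicle, immune and endothelial cells in the WNT results was not tested either.

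Over the arrays as a whole, the median spot had a brightness of 95.2 to 109.9 in Cy3 and 171.5 to 218 in Cy5. The share of gene spots well above background ranged from 53.2% to 59.1% in Cy3 and from 57.4% to 64.5% in Cy5. The number of arrays, 2, limits the precision of each value. No member probe was saturated.

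**Figure D5:**
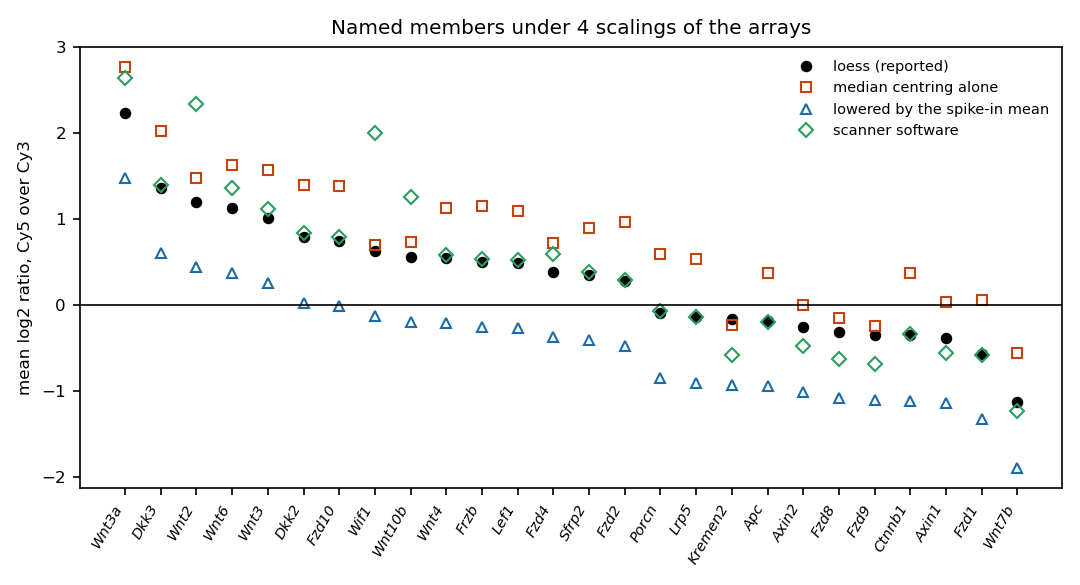
The 26 members chosen for full values stand on the x axis in order of their reported mean log2 ratio (filled circles), with the mean under median centring alone (squares), after lowering by the spike-in mean (triangles) and in the scanner software's ratio (diamonds) on the y axis. Wnt3a, Dkk3, Wnt2, Wnt6 and Wnt3 stay above 0 and Wnt7b stays below 0 under all 4, while Fzd10, Wnt4, Frzb and Lef1 cross 0 with the spike-in scaling and Ctnnb1, Axin1, Axin2 and Apc cross it with median centring.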

How the data were processed

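Total RNA was hybridised to 2 two-colour Agilent arrays, with Cy3 for wild type and Cy5 for the mutant, per the labels. Per the file headers, Agilent Feature Extraction (version 9.1.3.1) measured the intensity of each spot and of its local background. The same deposited files hold a processed intensity (background subtracted and dye normalised within each array) and a log10 ratio of Cy5 over Cy3, per the file headers, with other flags of 0 or 1 for spots above background, saturated or outlying, as deposited. The deposited value table equalled the log10 ratio to within 0.005, so its scale and direction are those of the software, with a median of 0 in both columns.

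In R 4.3.3, limma 3.58.1 with data.table (version 1.17.8) corrected background by normexp (offset 50) on mean signals and normalised log2 ratios by loess within arrays, with control spots at weight 0. Outlier spots were left out (51 and 18) and spots of a probe averaged. A probe was tested (23519 of 41174) if either channel was well above background on each array. lmFit and eBayes set the mean against 0 in a two-sided test, adjusted by Benjamini-Hochberg over the tested probes, with a threshold of 0.05. There was 1 residual degree of freedom beside 5.16 prior ones. The fit was tested on simulated data. A gene stands for its brightest tested probe, named from the files for members and otherwise updated through RefSeq (GRCm38.p6) by accession (16129 tested probes) or by symbol or synonym (4721). In 628 tested probes the file's name was kept and 2041 had no name. Intensities of different probes were not compared.

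Both array values are given for members past the threshold with a mean log2 ratio of at least 0.5 in size, for up to 6 changed members per role, or for the brightest where none passed, and for up to 4 changed genes per list. The other members and the marker genes named were chosen after their values were seen. The members, the pathway lists and the marker lists were chosen with earlier results of these data known. Alternatives were no background correction, the software's ratio, median centring alone, lowering by spike-in controls, no filter or a filter on both channels, the median over probes, an intensity trend in eBayes, leaving out each array and, added after seeing the data, median centring shifted to the loess median. Promoter windows are RefSeq's, of build GRCm38.p6. The array's genome build is not given in the sources used here.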

Additional observations from a re-analysis of the deposited data

How the results depend on the processing

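Of 53 genes followed through the settings, all kept their direction and call without background correction and with an intensity trend in eBayes. With the software's ratio and with no filter on dim probes, 1 gene each lost its call, Apc in the former and Kremen2 in the latter. Leaving out an array leaves no test, and no gene changed sign on either array alone. The number of members called higher, 19, was 32 with median centring alone and 5 when lowered by the spike-in mean, and the number called lower, 11, was 3 and 31. The 4 members at least 2-fold higher on both arrays became 9 with median centring alone and 1 with the spike-in scaling. They became 2 with median centring shifted to the loess median and 6 in the software's ratio. There were 3 with the filter on both channels, 3 with the median over probes and 4 to 5 with 1 array left out. The 0 members 2-fold lower became 6 with the spike-in scaling, and 0 to 1 with an array left out, where array 2 alone put Wnt7b past 2-fold. The median over members, 0.11, was 0.67 with median centring alone, -0.65 with the spike-in scaling, 0.038 with no filter, 0.090 with the median over probes, 0.14 with shifted median centring and 0.12 to 0.15 with an array left out. With median centring alone these genes turned above 0: Axin2 (0.0016), Axin1 (0.038), Fzd1 (0.064), Ppp2ca (0.099), Wnt7a (0.14), Csnk2a1 (0.29), Ctnnb1 (0.37), Apc (0.38), Lrp5 (0.53) and Porcn (0.59). With the shifted centring Lrp5 (0.0069) and Porcn (0.067) did, and with the median over probes Apc (0.090). With the spike-in scaling these members turned below 0: Fzd10 (-0.012), Wif1 (-0.12), Wnt10b (-0.20), Wnt4 (-0.21), Frzb (-0.25), Lef1 (-0.26), Wnt5a (-0.27), Fzd4 (-0.37), Sfrp2 (-0.40), Wnt5b (-0.42), Fzd2 (-0.47), Fzd5 (-0.51) and Wnt9a (-0.52). So did Gpc4 (-0.019), Mapk8 (-0.020), Chuk (-0.021), Ephb2 (-0.075), Rspo4 (-0.14), Nkd1 (-0.29), Tcf7l2 (-0.30) and Igfbp4 (-0.37). The spike-in scaling moves every gene of an array alike, while median centring alone also leaves out the loess curve, so its change differs between genes. Which setting gives the true 0 was not tested. No paired analysis was possible because the 2 arrays form 1 group and each ratio already sets both channels of an array side by side. Signal over background limits Wnt2, Wnt10b, Wnt16 and Wif1, whose dimmer channel was well above background on 1 array only. It also limits the dimmer Wnt5b probe, with Cy5 well above background on 1 array. The same holds for the Apc probe that rose, with Cy3 well above background on neither array. Kremen2 was dim too, though well above background in both channels on both arrays.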
